A study of Mus musculus with 2 samples.

Results

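The genes described here sense double-stranded RNA, pass the signal on, make or receive type I interferon, or act against viruses after interferon. They were chosen by symbol: 32 genes, all 32 of them present among the 50508 rows of the deposited table. RNA sequencing had been done on E14 cells, an embryonic stem cell line of the mouse strain 129/Ola, at passages 15 to 18. Both groups were grown on gelatin in serum medium (15%) to which leukemia inhibitory factor, a cytokine that keeps such cells undifferentiated, was added at 1000 U/ml, and both were transfected with a short RNA duplex by means of Lipofectamine RNAiMAX and harvested 72 h later. By the labels, the first group received a scramble siRNA and the second an siRNA against Mettl8. The labels list 1 library per group, although the series text speaks of triplicates, and no untransfected library was analysed here. A level set by the stem cell itself and a level set by transfection with a duplex therefore cannot be told apart, and neither can fewer expressing cells and less RNA per cell.

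As background, double-stranded RNA in the cytoplasm is bound by the helicases RIG-I and MDA5, which act through the mitochondrial adaptor MAVS, while TLR3 binds it in endosomes. Both routes lead to the kinase TBK1 and the transcription factors IRF3 and IRF7, which switch on the interferon-beta gene. Secreted interferon binds the IFNAR1 and IFNAR2 receptor chains, and transcription factors that include STAT2 and IRF9 then activate interferon-stimulated genes through a promoter sequence called the interferon-stimulated response element. Pluripotent stem cells are known to make little interferon in answer to double-stranded RNA and to express some antiviral genes without it.

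Levels are in FPKM, reads scaled to the length of the gene and the depth of the library, which allows genes to be ranked against each other. Pairs of values are given with the library labelled scramble siRNA first and the library labelled Mettl8 siRNA second. Reads per gene were rebuilt from the values, and intervals are exact 95% intervals of counting error only. With 1 library per group no test between the groups was possible, and no value has a replicate error. The targeted gene itself went against its label: Mettl8 was 0.67 and 100.3 FPKM, 107 and 15615 reads, so every direction below is that of the libraries as labelled. That both libraries come from cells transfected with an siRNA is likewise known from the labels only. Whether labels or columns are exchanged, or the second library had another treatment, was not tested. The rebuilt reads over all genes of the table numbered 22213578 and 21419266. The embryonic stem cell markers were present, with 8 of 8 at a mean of at least 1 FPKM and summed levels of 1302 and 1271 FPKM. None of the 9 fibroblast markers reached that level (0 of 9), with summed levels of 1.27 and 1.15 FPKM. Of the 8 leukocyte markers 2 did, Cd68 and Csf1r, with sums of 7.42 and 6.70 FPKM, while the defining leukocyte gene Ptprc was at 0.01 FPKM in both.

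The genes were put together as silent ones, which did not hold for 17 of them. Of the 32 genes, these 17 had a mean of at least 1 FPKM over both libraries, 5 lay from 0.1 to below 1 and 10 lay below 0.1. The median gene was at 1.42 and 1.52 FPKM, against 0.68 and 0.66 for all 21490 protein-coding genes, of which 46.5% and 46.2% reached 1 FPKM. By role, a mean of 1 FPKM was reached by 1 of 4 sensors, 4 of 6 signalling genes, 4 of 5 interferon and receptor genes, 4 of 5 RNA-directed effectors, 4 of 4 IFITM and tetherin genes and 0 of 8 other induced effectors, a grouping made with the levels known. Ifitm1, Ifitm2, Ifitm3 and Bst2 together held 78.6% and 77.7% of the summed FPKM of the 32 genes.

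**Figure D1:**
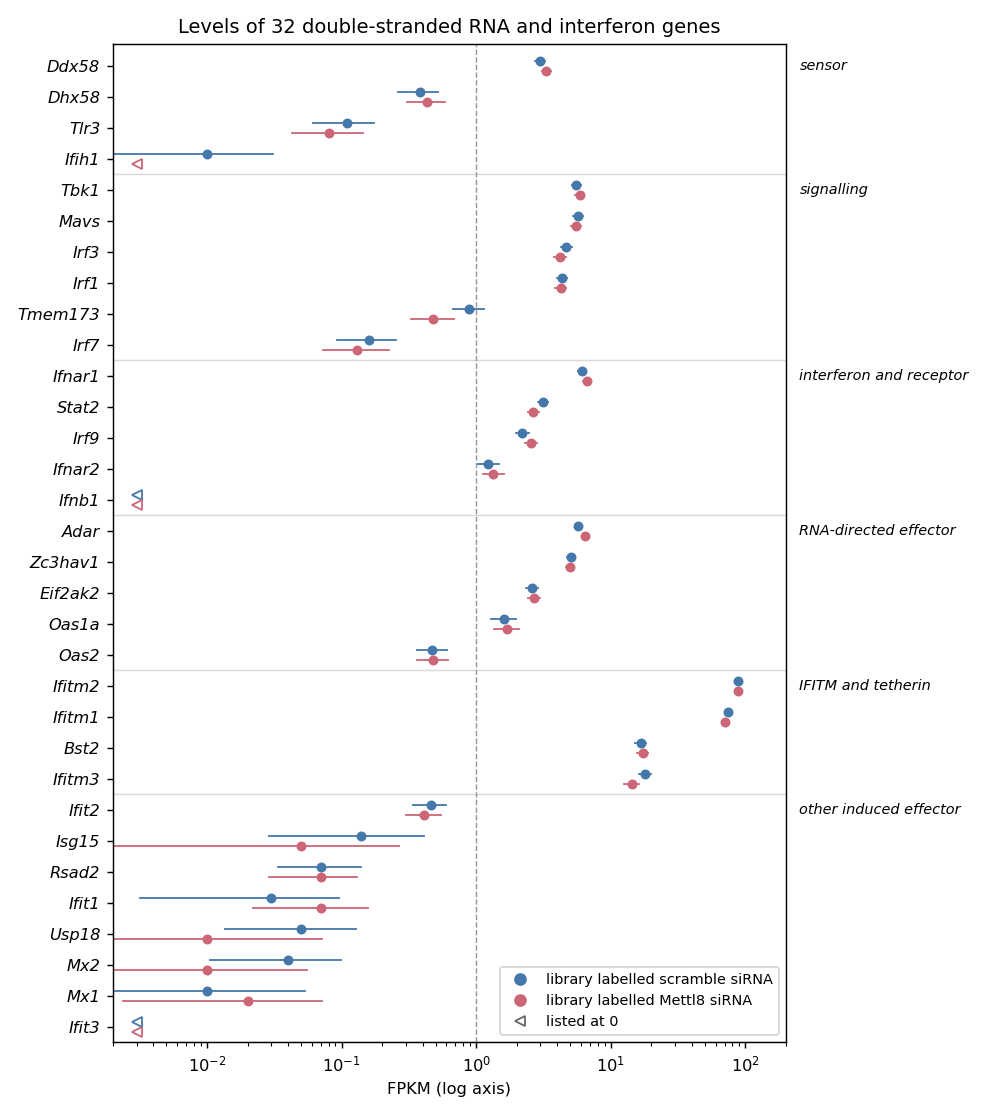
Level in FPKM (log axis) of each of the 32 genes in the library labelled scramble siRNA (blue) and the library labelled Mettl8 siRNA (red), by role, with exact 95% Poisson intervals as lines, cut off at the left edge where they reach lower. The dashed line marks 1 FPKM and open triangles mark genes listed at 0; the 4 IFITM and tetherin genes lie from 14.3 to 88.1 FPKM, and 7 of the 8 other induced effectors have a mean below 0.1 FPKM.

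Among the 4 sensors, RIG-I was the one with an appreciable transcript level. Ddx58, the gene of RIG-I, was 2.98 and 3.32 FPKM, which rests on 598 and 651 reads. Ifih1, the gene of MDA5, was 0.01 FPKM in the first library, where the rounding of the table allows 2 or 3 reads, and was listed at 0.00 in the second, which allows 0 or 1 read over 8165 bases. Of the 3 helicase sensor genes Ddx58 thus had the highest level, above 67.3% and 69.1% of protein-coding genes. Dhx58, the gene of LGP2, a relative that lacks the signalling domains of the other helicases, was 0.38 and 0.43 FPKM (35 and 39 reads). Tlr3, the endosomal sensor gene, was 0.11 and 0.08 FPKM (16 and 12 reads). An antisense gene, Gm45542, overlaps 381 exonic bases of Tlr3, and Dhx58os overlaps 141 of Dhx58, so these low counts could include reads of the other strand.

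Of the 6 signalling genes, 4 had a mean of at least 1 FPKM, while Irf7 and Tmem173 were detected at lower levels. Mavs, the adaptor gene, was 5.75 and 5.52 FPKM. Tbk1, the gene of the kinase that phosphorylates IRF3, was 5.54 and 5.87 FPKM, and Irf3 itself was 4.66 and 4.18. Irf1, the gene of a transcription factor that interferons and cytokines induce, was 4.35 and 4.25 FPKM. These 4 genes stood above 72.96% to 78.6% of protein-coding genes, and each had a ratio between the libraries whose interval holds 1. Irf7, the interferon-induced partner of Irf3, was 0.16 and 0.13 FPKM (17 and 14 reads), far below it. Antisense neighbours overlap 88 exonic bases of Irf3 (Bcl2l12), 135 of Irf1 (Gm17334) and 45 of Irf7 (Phrf1).

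Tmem173 differed most between the libraries among the genes with at least 20 reads. It encodes STING, the adaptor of the cytosolic DNA sensing route that shares TBK1 with the RNA route. Its level was 0.89 and 0.48 FPKM, on 58 and 31 reads, so the library labelled Mettl8 siRNA was the lower one. The ratio of read rates was 0.547, with a counting interval of 0.342 to 0.860. Of the 2153 protein-coding genes with a mean from 0.3 to below 1 FPKM, 9.57% were at least 1.5-fold apart by the same ratio. No transcript of another gene shared 50 bases with Tmem173.

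The interferon gene was not detected, while both receptor chains and the transcription factors that answer them were. Ifnb1, which encodes interferon-beta, had 0 reads in both libraries. Over its 750 bases a count of 0 allows up to 0.141 and 0.144 FPKM, taking 3 reads as the limit. Ifnar1 was 6.07 and 6.63 FPKM and Ifnar2 1.23 and 1.34, so the first chain exceeded the second in both libraries. Gm21970 overlaps 315 exonic bases of Ifnar2 on the same strand and was itself at 1.79 and 2.28 FPKM, and 7.89% of the 50-base stretches of Ifnar2 also occur in it. Stat2 was 3.15 and 2.66 FPKM and Irf9 2.20 and 2.55. The level of Stat2 was thus lower and that of Irf9 higher in the library labelled Mettl8 siRNA, with counting intervals of the ratio of 0.744 to 0.962 and 0.999 to 1.35.

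Effectors that act on RNA were present in both libraries. Adar encodes the editing enzyme ADAR1, which marks the cell's own double-stranded RNA by turning adenosine to inosine, and was 5.73 and 6.39 FPKM (1324 and 1443 reads). Zc3hav1, the gene of the CpG-rich RNA binding protein ZAP, was 5.05 and 4.96 FPKM. Eif2ak2, the gene of PKR, a kinase that stops translation when it binds double-stranded RNA, was 2.60 and 2.67 FPKM. Adar is the case in which strand matters: Chrnb2 overlaps 1365 of its exonic bases in antisense, 14.4% of its 50-base stretches occur in that gene, and Chrnb2 was 1.29 and 1.48 FPKM. An antisense gene, Gm26637, and a ribosomal RNA copy overlap 221 exonic bases of Eif2ak2.

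The oligoadenylate synthetases, enzymes that double-stranded RNA switches on, were low. Oas1a was 1.60 and 1.70 FPKM and Oas2 0.47 and 0.48, a 3.40-fold and 3.54-fold excess of Oas1a. This level of Oas1a is uncertain, because 57.6% of its 50-base stretches also occur in transcripts of Oas1g, which was itself at 0.83 and 0.97 FPKM. Oas2 shares no such stretch with another gene, and its ratio was 1.006 (0.690 to 1.47).

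The IFITM genes and Bst2 were the abundant members. The IFITM proteins sit in membranes and hinder fusion of viruses with the cell, and BST2, also called tetherin, holds budding viruses at the surface. Ifitm2 was 88.1 and 87.3 FPKM, Ifitm1 74.3 and 69.9, Ifitm3 18.0 and 14.3, and Bst2 16.7 and 17.2. Ifitm2 stood above 99.1% and 99.0% of all protein-coding genes, and Bst2 above 92.5% and 92.6%. The 3 IFITM genes lie together on chromosome 7 (GRCm38), Ifitm2 at 140954837 to 140955987 on the minus strand, Ifitm1 at 140967221 to 140969825 on the plus strand and Ifitm3 at 141009586 to 141010770 on the minus strand. Bst2 lies on chromosome 8 at 71534255 to 71537456 on the minus strand.

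Ifitm2 exceeded Ifitm3, a gene of the same cluster, 4.90-fold and 6.12-fold. Of the 50-base stretches of Ifitm2, 48.5% occur in another gene and 36.1% occur in Gm45717, an annotated protein-coding gene that shares 268 exonic bases with Ifitm2 on the same strand and was itself at 76.0 and 74.0 FPKM. For Ifitm3 the share was 10.02%, for Ifitm1 5.02% and for Bst2 0%. How the authors counted reads that fall in 2 genes is not given in the sources used here, so the level of Ifitm2, and with it the order of Ifitm2 and Ifitm1, is uncertain. Other IFITM genes were lower: Ifitm7 was 1.49 and 1.37 FPKM and Ifitm6 0.23 and 0.08, both named after their values were seen.

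Ifitm3 was the one abundant member whose counting interval lay well below 1. It rested on 347 and 269 reads, lower in the library labelled Mettl8 siRNA, with a ratio of 0.793 (0.674 to 0.933). The neighbouring Ifitm1 had a ratio of 0.940 (0.886 to 0.998) and Ifitm2 0.991 (0.924 to 1.06). Bst2 had a ratio of 1.03 (0.900 to 1.18). The differences of Ifitm1 and Ifitm2 turned positive after rescaling to an equal FPKM sum, while that of Ifitm3 stayed negative.

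Of the 8 other induced effectors, a group made with the levels known, 7 had a mean below 0.1 FPKM and were close to absent. Isg15, which encodes a ubiquitin-like modifier and is induced strongly by interferon in other cells, had 3 reads and 1 read (0.14 and 0.05 FPKM). Usp18, the gene of the protease that removes ISG15 and damps the receptor, had 4 reads and 1 read. Ifit1, whose product binds foreign RNA ends, had 2 and 5 reads (0.03 and 0.07 FPKM), and Ifit3 had 0 reads in both, which allows up to 0.0604 FPKM in the first library. For Ifit3, 51.2% of its 50-base stretches also occur in Ifit3b, which had 0 reads in both as well. Rsad2, the gene of viperin, was 0.07 FPKM in both, on 9 and 8 reads. Mx1 and Mx2, genes of dynamin-like GTPases that are defective in many laboratory mouse strains, had 1 and 2 reads and 4 reads and 1 read.

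Ifit2 stood apart from its family. It was 0.46 and 0.41 FPKM on 51 and 45 reads, a ratio of 0.903 (0.591 to 1.38), whereas Ifit1 and Ifit3 beside it on chromosome 19 held 7 and 0 reads over both libraries. Ifit2 lies at 34550694 to 34576419, Ifit3 at 34583531 to 34588731 and Ifit1 at 34640871 to 34650009, all on the plus strand. No transcript of another gene shared 50 bases with Ifit2. The 10 members with a mean below 0.1 FPKM held 41 and 30 reads together. At these counts a difference between the libraries was not detectable for any single one of them: each interval of the ratio that could be formed holds 1.

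The promoters show that the abundant and the absent members can carry the same kind of sequence. RefSeq promoter windows (GRCm38.p6, 250 bases before to 50 after the start of transcription) matched 26 of the 32 members by symbol, with 31 windows. The 6 members without a window were Dhx58, Tmem173, Oas2, Mx1, Mx2 and Usp18, all with a mean below 1 FPKM. All 17 members at 1 FPKM or more thus had a window, but only 9 of the 15 lower ones. The windows were searched on both strands for GAAANNGAAA, a core of the interferon-stimulated response element, with overlapping matches counted. It occurred in 12 of the 26 members, 46.2%, against 3.44% of all 32851 windows and 4.06% of 16266 protein-coding genes. Ifitm1, the second most abundant member, had no match in its 1 window. This window, chr7:140967826-140968125, begins after the annotated start of the gene at 140967221, so that start was not searched. The following 6 windows, all with a match, are shown because 3 belong to absent members and 3 to abundant ones, each in the direction of transcription with the matches in capitals.

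Isg15, chr4:156200769-156201068, minus strand: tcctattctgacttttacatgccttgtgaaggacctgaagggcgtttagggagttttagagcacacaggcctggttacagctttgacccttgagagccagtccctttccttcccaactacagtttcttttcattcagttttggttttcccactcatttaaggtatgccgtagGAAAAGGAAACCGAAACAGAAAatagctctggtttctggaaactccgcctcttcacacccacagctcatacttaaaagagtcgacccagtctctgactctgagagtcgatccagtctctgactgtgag
Ifit1, chr19:34640639-34640938, plus strand: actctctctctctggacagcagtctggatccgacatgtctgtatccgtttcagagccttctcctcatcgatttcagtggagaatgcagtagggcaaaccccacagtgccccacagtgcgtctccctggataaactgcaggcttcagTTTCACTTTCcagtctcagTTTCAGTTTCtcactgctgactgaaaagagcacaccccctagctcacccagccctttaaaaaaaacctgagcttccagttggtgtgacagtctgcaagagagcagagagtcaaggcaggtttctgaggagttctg
Ifit3, chr19:34583279-34583578, plus strand: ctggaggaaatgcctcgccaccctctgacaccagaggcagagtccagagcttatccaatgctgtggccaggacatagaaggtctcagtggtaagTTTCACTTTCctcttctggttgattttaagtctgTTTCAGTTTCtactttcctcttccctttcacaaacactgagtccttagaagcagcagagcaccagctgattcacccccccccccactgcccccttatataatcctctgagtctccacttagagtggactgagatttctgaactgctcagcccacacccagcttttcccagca
Ifitm2, chr7:140955912-140956211, minus strand: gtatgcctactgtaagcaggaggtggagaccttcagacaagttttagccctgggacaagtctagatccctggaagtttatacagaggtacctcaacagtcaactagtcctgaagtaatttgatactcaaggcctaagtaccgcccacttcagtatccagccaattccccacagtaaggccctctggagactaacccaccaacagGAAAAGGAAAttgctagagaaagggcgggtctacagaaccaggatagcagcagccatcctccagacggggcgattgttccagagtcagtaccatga
Ifitm3, chr7:141010695-141010994, minus strand: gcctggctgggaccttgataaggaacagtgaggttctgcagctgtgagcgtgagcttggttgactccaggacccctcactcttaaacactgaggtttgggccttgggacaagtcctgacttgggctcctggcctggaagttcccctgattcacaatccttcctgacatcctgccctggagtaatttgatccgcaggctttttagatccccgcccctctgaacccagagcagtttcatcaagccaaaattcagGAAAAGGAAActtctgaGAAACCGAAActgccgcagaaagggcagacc
Bst2, chr8:71537423-71537722, minus strand: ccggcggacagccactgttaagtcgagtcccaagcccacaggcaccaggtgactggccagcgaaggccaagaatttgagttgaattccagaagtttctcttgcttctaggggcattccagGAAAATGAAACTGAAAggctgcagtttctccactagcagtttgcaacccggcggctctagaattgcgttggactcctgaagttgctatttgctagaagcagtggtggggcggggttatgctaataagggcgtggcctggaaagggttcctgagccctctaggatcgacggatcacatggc

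In Isg15 3 overlapping matches cover 22 bases, from position -78 to -57 relative to the start. Ifit1 and Ifit3 each hold 2 separate matches on the opposite strand, the first ones beginning at -104 and -156. In Bst2 2 overlapping matches cover 16 bases from position -130 to -115. Ifitm2 holds a single match from -46 to -37, and Ifitm3 holds 2 matches between transcribed bases 3 and 29. Isg15, with 756 bases and 3 matches, thus had 3 reads and 1 read, while Ifitm2, with 655 bases and a single match, had 1643 and 1591. A match is a description of letters and not evidence of binding.

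Over the 26 members with a window the motif did not separate those at 1 FPKM or more from the lower ones. The 6 members not searched, all below 1 FPKM, could change the counts for the low members. Of the 12 members with a match, 7 had a mean of at least 1 FPKM and 5 lay below 0.1. Of the 14 without one, 10 had a mean of at least 1 FPKM and 4 a lower mean. Ifnb1 and Irf7, both known as inducible, had no match in their window. The match was also common in the other interferon-induced genes, where 20 of 52 with a window held it (38.5%). A shorter palindrome, TTCNNNGAA, the letters of the interferon-gamma activated site, occurred in 9 of the 26 members, including Bst2 and Ifitm3. It occurred in 8.30% of all windows. That is a share of windows and not of genes, and the 26 members have 31 windows, so it is not a like background for the 9.

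The median CpG count of the windows was higher for members with a mean of at least 1 FPKM than for lower ones, but their counts overlapped. Members with a mean of at least 1 FPKM had a median of 18 CpG dinucleotides in the richest of their windows (17 genes). The median was 6 in the 9 members below 1 FPKM that had a window, of 15 at that level. For protein-coding genes as a whole the medians were 23 at 1 FPKM or more and 3 below 0.1 FPKM. Irf1 reached 43, Tbk1 37 and Adar 34. Ifitm2, Ifitm1 and Ifitm3, with 4, 5 and 5, had as few as Ifit1 and Isg15, with 4 and 6. Oas1a (3), Irf9 (9) and Bst2 (11) also lay at 1 FPKM or more, while Ifih1 (14), Ifit2 (11) and Tlr3 (10) lay below it. Across the 26 genes Spearman's rho between CpG count and mean FPKM was 0.392, a description over genes, which share both libraries and are not independent.

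**Figure D2:**
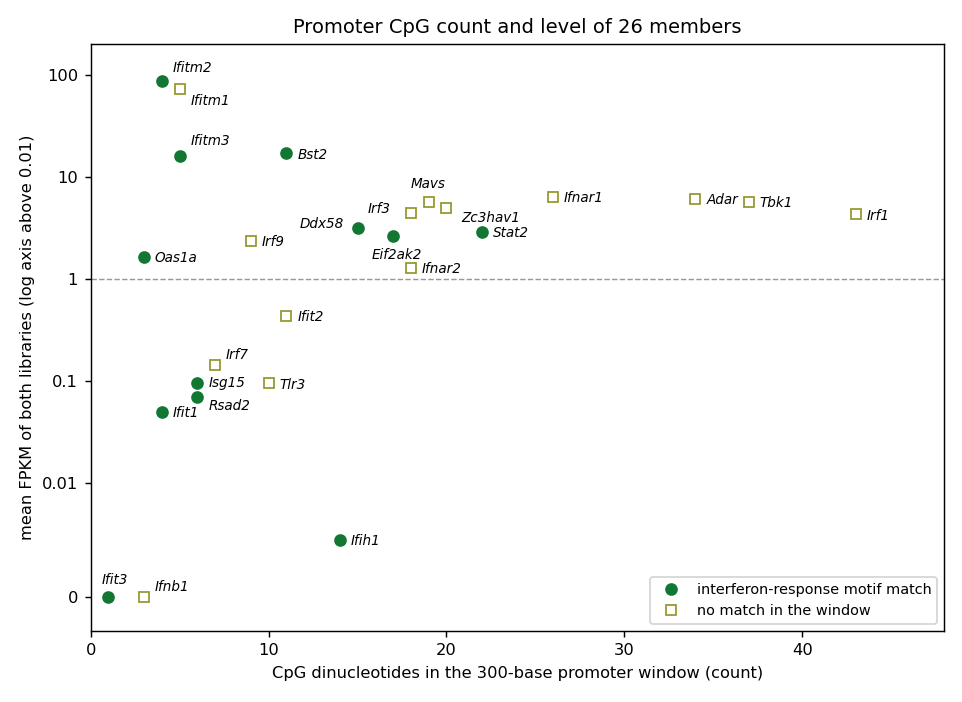
Mean FPKM of both libraries (log axis above 0.01, linear below) against the number of CpG dinucleotides in the 300-base promoter window, for the 26 members with a window. Filled circles have a GAAANNGAAA match on either strand and open squares none; Ifitm1, Ifitm2, Ifitm3 and Oas1a lie above 1 FPKM with 5 or fewer CpG, while Isg15, Rsad2, Ifit1 and Ifit3, with 6 or fewer, lie below 0.1 FPKM.

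Between the libraries, 0 of the 17 members with a mean of at least 1 FPKM were 1.5-fold apart on the log2(FPKM + 1) scale, which understates changes of low genes. The share was 2.11% over all 13243 genes at that level but 0.1% (10 of 9965) over the protein-coding ones, so the count of members is near the background. With a pseudocount of 0.1 and all 32 members counted, Tmem173 (-0.771) and Isg15 (-0.678, on 3 reads and 1 read) were 1.5-fold apart, 2 of 32, against 4.33% of all 21490 protein-coding genes. Of the 17, 9 were higher and 8 lower in the library labelled Mettl8 siRNA, against 54.1% and 45% of all 13243 genes. Their median difference was 0.028, against 0.013 for all genes. After rescaling to an equal FPKM sum, which moved the median of all genes to 0.092, 14 members were higher and 4 lower, against 73.7% of all genes higher. The differences ran from -0.31 for Ifitm3 to 0.15 for Irf9. The counting interval of the ratio excluded 1 for 5 of the 17, against 19.4% of all 13243 genes and 22.6% of 9965 protein-coding ones. Adar (1.12, 1.03 to 1.202) and Ifnar1 (1.09, 1.001 to 1.19) were higher, against 11.6% of all genes in that direction. Stat2 (0.846, 0.744 to 0.962), Ifitm3 and Ifitm1 were lower, against 7.85%. With so few genes the count is near the background, and the intervals compare the reads of these libraries and not the conditions.

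**Figure D3:**
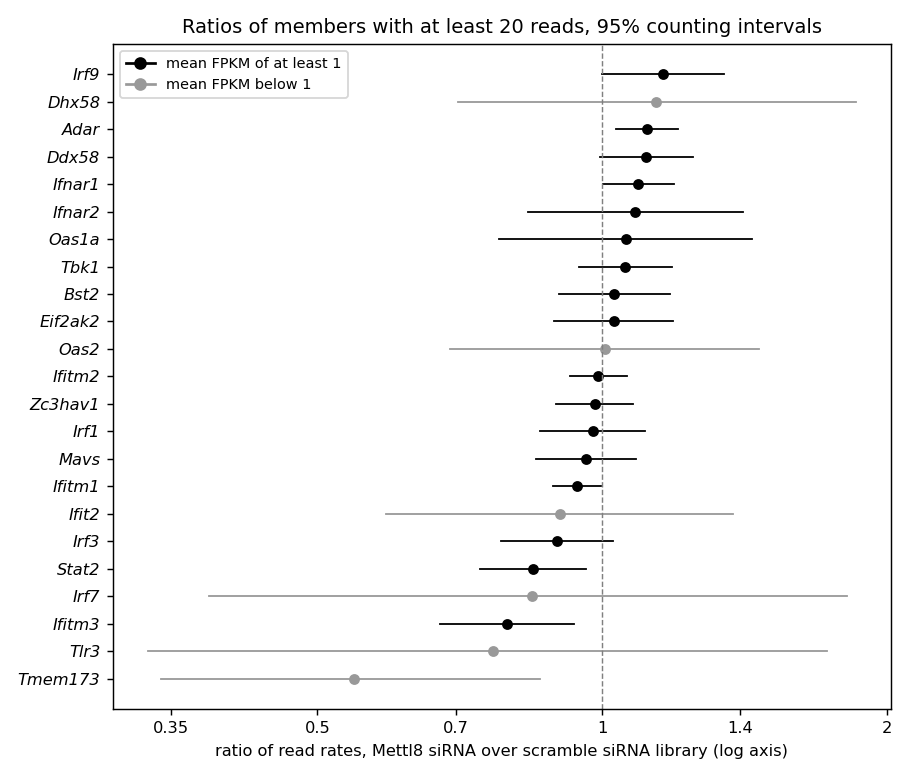
Ratio of read rates, library labelled Mettl8 siRNA over library labelled scramble siRNA (log axis), with exact 95% counting intervals, for the 23 members with at least 20 reads over both libraries. Black points have a mean of at least 1 FPKM and grey points a lower mean; Tmem173 lies lowest at 0.547, and the intervals of Irf9, Ddx58, Ifnar1 and Ifitm1 end close to 1.

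The sums of FPKM over a role were 21.4 and 20.4 for signalling, 15.5 and 16.2 for RNA-directed effectors, 12.7 and 13.2 for interferon and receptor genes and 3.48 and 3.83 for sensors. The other induced effectors summed to 0.80 and 0.64 FPKM. Among the 13 members with a mean below 1 FPKM and at least 1 read, the interval excluded 1 for 1, Tmem173, against 3.98% of 9398 such protein-coding genes.

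Other genes of the pathway are given by list, with genes chosen in each by size of difference and by level. On the values rescaled to an equal FPKM sum, 73.7% of the 15229 genes then at 1 FPKM or more were higher. By list, 11 of 15 sensing and adaptor genes, 5 of 9 receptor and JAK-STAT genes and 15 of 19 other interferon-induced genes were then higher. So were 17 of 18 other double-stranded RNA binding proteins, 1 of 4 NF-kappa-B targets and 6 of 7 housekeeping genes. Rescaling also changed which genes were counted, and the median of the receptor and JAK-STAT list went from 0.043 to 0.033. The ligands were near absent. Of 20 further interferon ligand genes, 0 reached 1 FPKM and 8 had a value of 0 in both libraries, with 7 and 18 reads over all 20. Ifnk, an interferon of keratinocytes, was 0.09 and 0.22 FPKM (2 and 5 reads). Ifna13 was 0.00 and 0.22 FPKM (0 and 5 reads) and Ifna4 0.06 and 0.13 (1 and 2 reads). Interferon-alpha genes have near-identical copies, so these few reads cannot be given to 1 gene with certainty.

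Of 25 other sensing and adaptor genes, 14 had a mean of at least 1 FPKM, 5 of them higher and 9 lower, with a median of -0.024. Trim25, the gene of a ubiquitin ligase linked to RIG-I activation, was 24.7 and 24.3 FPKM and the most abundant. Chuk, a kinase gene of the NF-kappa-B route, was 12.5 and 12.1 FPKM, and Irf5 was 9.40 and 9.59. Rnf135, another ubiquitin ligase gene linked to RIG-I, had the largest difference of this list, at 1.30 and 0.86 FPKM (79 and 51 reads, ratio 0.661, 0.455 to 0.951). Rela (4.05 and 3.71 FPKM), Azi2 (4.91 and 5.33) and Tank (1.16 and 1.03) followed; the last 2 encode adaptors of TBK1.

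Of 11 receptor and JAK-STAT genes, 6 were measured at this level, 4 higher and 2 lower, with a median of 0.043. Jak1 was 6.96 and 7.03 FPKM and Tyk2 6.41 and 6.16, the kinases that sit on the interferon receptor. Pias1, the gene of an inhibitor of STAT signalling, was 4.53 and 4.06 FPKM. Jak2 was 1.17 and 1.32 FPKM and the phosphatase gene Ptpn6 1.67 and 1.81.

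Of 63 other interferon-induced genes, 16 had a mean of at least 1 FPKM, 9 higher and 7 lower, with a median of 0.021, while 26 lay below 0.1 FPKM. Apobec3, the gene of a cytidine deaminase that restricts retroviruses, was 11.7 and 11.8 FPKM, B2m, the light chain of class I histocompatibility molecules, 9.15 and 9.53, and the immunoproteasome gene Psmb10 5.89 and 5.80. Parp9 had the largest difference, at 2.52 and 3.12 FPKM (ratio 1.24, 1.07 to 1.43). Trex1, a DNA exonuclease gene, was 2.94 and 3.60 FPKM, Trafd1 3.13 and 2.75, and Oas1c 1.12 and 1.30.

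The leading genes among other double-stranded RNA binding proteins were far more abundant than the sensors, while Stau2 (1.16 and 1.18 FPKM), Adarb1 (0.89 and 0.95) and Adarb2 (0.03 and 0.02), named after their values were seen, lay below Ddx58. Of 19 such genes, 17 had a mean of at least 1 FPKM, 13 higher and 4 lower, with a median of 0.071. The helicase genes Ddx3x (49.95 and 55.7 FPKM), Dhx9 (43.9 and 42.2) and Dhx15 (26.8 and 29.0) led the list. Zfr was 7.15 and 8.06 FPKM, Tarbp2, the gene of a Dicer partner, 6.36 and 7.03, and Stau1, the gene of an RNA transport protein, had a log2 difference of -0.11. The interval of the ratio was above 1 for 8 of the 17 and below 1 for 1, against 11.6% and 7.85% of all genes.

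The NF-kappa-B target genes, a second outcome of sensor signalling, had 4 of 11 members at a mean of at least 1 FPKM, 0 higher and 4 lower, with a median of -0.14. Icam1 was 15.0 and 13.4 FPKM, Nfkbia, the gene of the pathway's inhibitor, 11.9 and 10.03, Nfkb2 3.57 and 3.42 and Relb 1.85 and 1.61. Tnf and Il6, which are among the cytokine genes of the list, had 1 and 1 and 0 and 2 reads, and were named after their values were seen. For comparison, 7 of 8 housekeeping genes were measured, 4 higher and 3 lower, with a median of 0.018. Actb was 526 and 514 FPKM, Gapdh 287 and 291, Ppia 169 and 183, Ywhaz 37.6 and 34.3 and Sdha 36.5 and 39.1. The housekeeping gene with the largest difference was Ywhaz, at -0.128, against -0.220 for Nfkbia, the largest of the NF-kappa-B targets.

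**Figure D4:**
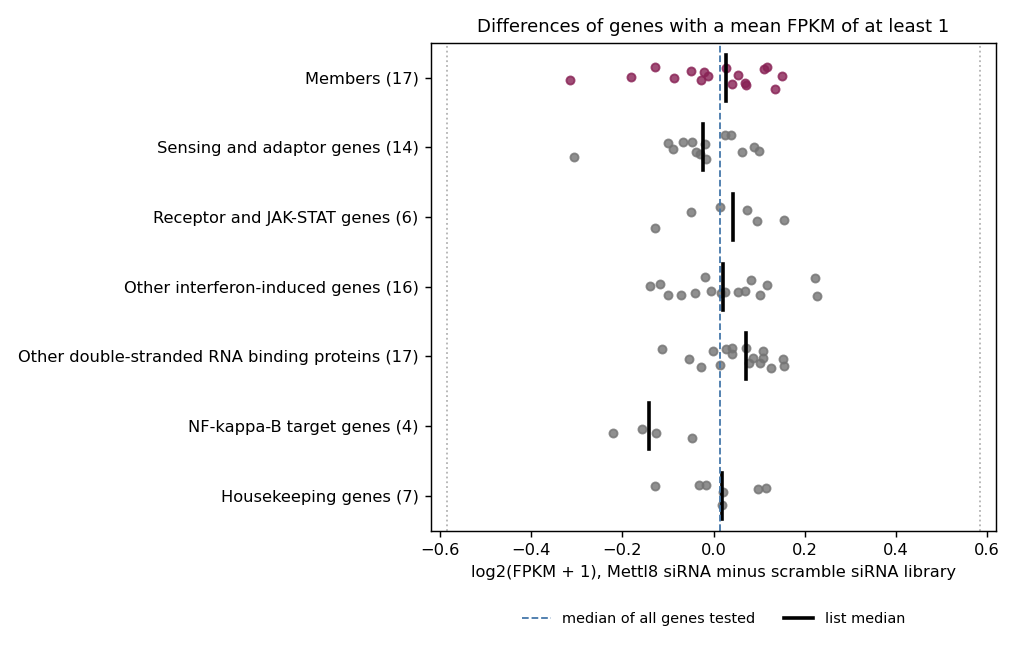
Difference of log2(FPKM + 1), library labelled Mettl8 siRNA minus library labelled scramble siRNA, for each gene with a mean of at least 1 FPKM in the 32 members and 6 other lists, with the number of genes in brackets. Black bars are list medians, the dashed line is the median of all 13243 genes (0.013) and the dotted lines mark 1.5-fold; every point lies inside them.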

How the data were processed

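RNA was extracted with Trizol and libraries made by Illumina protocols, per the labels. The submitters' processing notes name featureCounts 1.5.0-p1, STAR 2.4.0i and the mm10 build. The deposited values are FPKM per gene, rounded to 2 decimals by the authors; for annotation, strand setting and shared reads the processing is not given in the sources used here. The deposited gene length equals the GENCODE M21 exon union (GRCm38) for 28 of 32 members.

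FPKM times length fell on whole reads for 100% of 3120 and 3561 genes of under 400 bases and under 30 reads, within the rounding plus 0.005 reads. This gave denominators of 28462341 and 27818467 reads and rebuilt reads per gene. Intervals are exact Poisson (levels) or Clopper-Pearson (ratios) at 95%; PCR copies of a molecule are not independent, so they cover counting error only. Differences are log2(FPKM + 1), for genes with a mean of at least 1 FPKM. Stretches of 50 bases were compared among GENCODE transcripts on both strands. Python 3.11.15 and scipy 1.17.1 were used, and the steps were tested on simulated data. Alternatives were other pseudocounts, scalings, filters and fold limits. Named genes were all members, Mettl8 and, of each list, the up to 4 largest differences and 3 highest levels; some of these are not reported here. The members and lists were chosen with earlier results of these data known.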

Additional observations from a re-analysis of the deposited data

How the results depend on the processing

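No paired analysis was possible because each group has 1 library. The count of members 1.5-fold apart was 0 with a pseudocount of 0.1, each library rescaled to the same FPKM sum, the median ratio set to 0, no filter on low values, a mean of at least 5 FPKM, or a 2-fold limit. It was 2 (Tmem173 and Isg15) with the pseudocount of 0.1 and no filter together, a setting chosen after seeing the data. The median difference of the members was 0.028 as reported, 0.094 with the same FPKM sum, -0.0066 without a filter and -0.013 at 5 FPKM, so its sign is not settled. Members higher and lower numbered 14 and 4 with the same sum, 13 and 16 without a filter and 4 and 5 at 5 FPKM, where 18, 32 and 9 members were counted; rescaling moved the median of all genes by 0.079 and turned Mavs, Irf1, Ifitm1, Ifitm2 and Zc3hav1 positive. Without the members sharing at least 10% of their 50-base stretches, a setting chosen after seeing the data, the median was 0.028. All genes at least 2-fold apart numbered 85 as reported, 176 with a pseudocount of 0.1, 176 with the same sum, 164 without a filter and 5 at 5 FPKM; those 1.5-fold apart numbered 280, and 508, 550, 703 and 48 in that order. The cause was not tested. The 3 level classes kept their counts within 1.5 times in each library alone and with the same sum. Depth limits the members below 0.1 FPKM, which held at most 28 reads each over both libraries.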

Other observations

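Among other interferon-induced and antigen presentation genes below 1 FPKM, a few had ratios whose counting interval excluded 1, and they went both ways. They were chosen after their values were seen. Tap1, the gene of a peptide transporter for class I presentation, was 0.73 and 0.39 FPKM on 114 and 59 reads, a ratio of 0.530 (0.380 to 0.731). Nlrc5, the gene of a regulator that activates class I genes, was 0.07 and 0.17 FPKM on 17 and 40 reads, a ratio of 2.41 (1.33 to 4.53), the opposite direction. Gbp4, a guanylate-binding protein gene, was 0.10 and 0.22 FPKM on 21 and 46 reads, and Irgm1, an immunity-related GTPase gene, 0.60 and 0.79 on 99 and 128. Of 45 interferon-induced genes of the list with a mean below 1 FPKM and at least 1 read, 3 had an interval above 1 and 1 below it, against 3.98% of such protein-coding genes in either direction. The 3 were Gbp4, Irgm1 and Sp100 (0 and 8 reads), and the 1 below was Tap1. Nlrc5 belongs to the list of sensing and adaptor genes and is not part of this count. These counts compare 2 libraries and carry no spread between cultures.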
